A study of Saccharomyces cerevisiae with 51 samples.

Results

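The 7 genes described here, ADY2, ADH2, ALD4, ALD6, ACS1, ACS2 and ACH1, take ethanol and acetate of budding yeast (Saccharomyces cerevisiae) towards acetyl-CoA. They were chosen by name for this shared function and are 7 of 6840 genes in the RNA table of the metabolic cycle, 7 of 6821 in the rapamycin RNA table and 7 of 5193 genes in the ATAC table. The list was also selected on the cycle RNA values of these libraries, which were known and in which ADY2, ADH2 and ACS1 were among the genes with the widest swings, so the levels over the cycle are given as a description with no test. All 7 passed the filter on low values, a mean of at least 1 FPKM (fragments scaled by gene length and by library, so levels of different genes can be compared per length), along with 6510 genes of the cycle table and 6333 of the rapamycin table.

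Ethanol made by fermentation is oxidised to acetaldehyde by alcohol dehydrogenase, then to acetate by aldehyde dehydrogenases, and acetate is joined to coenzyme A by acetyl-CoA synthetases. Acetate can also enter from the medium through plasma membrane transporters. In this yeast, genes of the pathway such as ADH2 and ACS1 are known to be repressed by glucose and switched on for growth on ethanol or acetate. In a continuous culture held at low glucose, cells can oscillate together between an oxidative burst of respiration (OX), a reductive building phase with division (RB) and a quiescent-like reductive charging phase (RC), which is the yeast metabolic cycle.

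The cycle series compared a laboratory strain background, CEN.PK, in 2 genotypes. The arp5∆ strain (CEN.PK ARP5::KAN) carries a KAN marker at ARP5, which encodes an actin-related subunit of the INO80 chromatin remodelling complex, and the wild type is CEN.PK without it. Both were sampled at 6 phases named RC start, RC mid, OX mid, OX late, RB start and RB late, with 2 libraries, A and B, per phase and genotype for RNA (24 libraries) and 24 libraries for ATAC, an assay that cuts open chromatin with a transposase. Per the labels, A and B are technical replicates, with RNA prepared separately from a single culture, so their agreement does not measure variation between cultures, and a difference between the genotypes cannot be told apart from one between those cultures. The third set is asynchronous, mid-log BY4741, another laboratory strain with auxotrophic markers, sampled as a control and after 45 and 90 min of 30 nM rapamycin, which blocks the growth-promoting kinase complex TORC1, with 2 biological replicates per group. The title of the untreated sample calls it a control while its treatment text names rapamycin, and the title was followed.

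The cycle libraries held 5.03 to 9.70 M reads on genes and the rapamycin libraries 9.45 to 13.6 M. ARP5 RNA was listed at 0 in 11 of 12 arp5∆ libraries and at 0.0649 FPKM in the other, against 46.4 to 55.7 FPKM in the 12 wild-type libraries. Phases were taken from the sample labels. The cycle table lists the wild-type columns in the order of the phases and those of arp5∆ from RB start onwards, so column order was given no weight. Whether a label marks the same point of the cycle in both genotypes was not tested. Over all 6510 genes, 4.76% had their highest phase mean at the same label in both genotypes, 26.4% had it 3 labelled phases later in arp5∆ and 42.0% had it 4 phases later, counting round the cycle. Genes outside the pathway, such as LEU2, HIS3 and URA3 of amino acid and uracil synthesis, peaked at RC start in arp5∆ and at OX mid in wild type, so each phase-by-phase difference below is a difference at a label. The 7 genes together held between 0.31% and 3.90% of all FPKM in arp5∆ libraries, between 0.0968% and 2.42% in wild-type libraries, and between 0.0948% and 0.182% in the rapamycin set. In such bulk samples, fewer cells with a transcript and less of it per cell cannot be told apart.

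The 7 genes divided by the size of their swing over the cycle. ADY2, ADH2, ALD4 and ACS1 swung by more than 4 log2 units over the phases in both genotypes, a limit set after the values were seen (after quantile normalization ALD4 in arp5∆ was under it, at 3.67), whereas ALD6 and ACS2 stayed within 2.21 log2 units and ACH1 followed another course. The 4 wide genes peaked at OX late in arp5∆, against RC start or RB late in wild type, and their lowest phase was RC mid in arp5∆, against OX late in wild type.

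ADY2 (YCR010C, chromosome III, 132273 to 133124, minus strand, RefSeq R64) encodes a plasma membrane acetate transporter. Libraries A and B of arp5∆ had 70.6 and 66.9 FPKM at RC start, 27.2 and 23.8 at RC mid, 1782 and 1751 at OX mid, 3854 and 3789.6 at OX late, 2520.2 and 2523 at RB start and 1189.9 and 1191 at RB late. Those of wild type had 3560.4 and 3556 FPKM at RC start, 1079.7 and 1069.8 at RC mid, 29.5 and 26.9 at OX mid, 5.59 and 4.1 at OX late, 12.5 and 12.9 at RB start and 3990.1 and 4044 at RB late. Its arp5∆ libraries lay below wild type at RC start, RC mid and RB late and above it at OX mid, OX late and RB start. The range over the phases was 7.18 log2 units in arp5∆ and 9.44 in wild type, rank 1 of 6510 genes in each genotype.

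ADH2 (YMR303C, chromosome XIII, 873291 to 874337, minus strand) encodes the alcohol dehydrogenase that oxidises ethanol to acetaldehyde. ADH2 RNA in arp5∆ A and B was 1552 and 1572 FPKM at RC start, 191 and 192 at RC mid, 6299 and 6038 at OX mid, 15957 and 15448 at OX late, 12674 and 11950 at RB start and 6997 and 7194 at RB late. Wild-type ADH2 RNA was 16702 and 16635 FPKM at RC start, 9835 and 10306 at RC mid, 385 and 400.2 at OX mid, 30.5 and 32.6 at OX late, 48.7 and 45.8 at RB start and 7537 and 7180.0 at RB late. At RB late the libraries of the genotypes overlapped, at RC start and RC mid those of arp5∆ were lower, and in the other 3 phases they were higher. The range was 6.35 log2 units in arp5∆ (rank 4 of 6510) and 9.0 in wild type (rank 2).

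ALD4 (YOR374W, chromosome XV, 1039840 to 1041399, plus strand) encodes the main mitochondrial aldehyde dehydrogenase, which makes acetate from acetaldehyde. The arp5∆ libraries A and B held 3367 and 3452 FPKM at RC start, 1118 and 1099.7 at RC mid, 12404 and 12126 at OX mid, 18367 and 18053 at OX late, 14807 and 13991 at RB start and 9426 and 9403 at RB late. The wild-type libraries held 13401 and 13427 FPKM at RC start, 9741 and 9962 at RC mid, 999.8 and 1008 at OX mid, 143 and 144 at OX late, 454 and 423 at RB start and 8567 and 8521 at RB late. Averaged over the phases, ALD4 had the highest FPKM of the 7 genes in arp5∆ and came second to ADH2 in wild type. Its range was 4.04 log2 units in arp5∆ (rank 28) and 6.54 in wild type (rank 35).

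ALD6 (YPL061W, chromosome XVI, 432588 to 434090, plus strand) encodes the cytosolic aldehyde dehydrogenase. A and B in arp5∆ measured 1748 and 1720.3 FPKM at RC start, 523 and 518 at RC mid, 2239 and 2173 at OX mid, 1248 and 1242 at OX late, 1139 and 1070.4 at RB start and 1254 and 1276 at RB late. A and B in wild type measured 1336 and 1324 FPKM at RC start, 1247 and 1307 at RC mid, 419 and 421 at OX mid, 377 and 380.3 at OX late, 1016 and 926 at RB start and 1785 and 1732 at RB late. ALD6 was higher in arp5∆ than in wild type in 4 phases and lower at RC mid and RB late. Its range was 2.08 log2 units in arp5∆ (rank 578) and 2.21 in wild type (rank 1751).

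ACS1 (YAL054C, chromosome I, 42881 to 45022, minus strand) encodes the acetyl-CoA synthetase that is repressed by glucose. For arp5∆, A and B gave 189 and 184 FPKM at RC start, 60.7 and 58.8 at RC mid, 3128 and 3051 at OX mid, 5819 and 5649.6 at OX late, 3651 and 3389 at RB start and 1955 and 1904 at RB late. For wild type they gave 4238 and 4117 FPKM at RC start, 1838 and 1837 at RC mid, 30.1 and 31.3 at OX mid, 12.2 and 12.8 at OX late, 50.8 and 42.7 at RB start and 2727 and 2622 at RB late. As for ADY2, the arp5∆ libraries were below wild type in 3 phases and above it in 3. The range was 6.56 log2 units in arp5∆ (rank 2) and 8.27 in wild type (rank 4).

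ACS2 (YLR153C, chromosome XII, 445524 to 447575, minus strand) encodes the acetyl-CoA synthetase that cells need on glucose. Values of A and B in arp5∆ were 412 and 407 FPKM at RC start, 354 and 352 at RC mid, 426 and 425 at OX mid, 385 and 361 at OX late, 378 and 340.1 at RB start and 343 and 345 at RB late. Values in wild type were 324 and 313 FPKM at RC start, 408 and 405 at RC mid, 214 and 219 at OX mid, 254 and 264 at OX late, 485 and 445 at RB start and 453 and 452 at RB late. This gene hardly varied in arp5∆, where its range of 0.31 log2 units ranked 5872 of 6510, and neighbouring phases in its order overlapped for OX late with RB start and for RB start with RC mid. In wild type its range was 1.10 log2 units (rank 3940), and only RB start and RB late overlapped.

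ACH1 (YBL015W, chromosome II, 194122 to 195702, plus strand) encodes a mitochondrial enzyme that transfers coenzyme A between succinate and acetate. The pair of arp5∆ libraries read 457 and 453 FPKM at RC start, 1026 and 999 at RC mid, 1556 and 1499 at OX mid, 1349.5 and 1283 at OX late, 1131 and 1033 at RB start and 1027 and 990.2 at RB late. The pair of wild-type libraries read 310.3 and 308 FPKM at RC start, 210.4 and 216 at RC mid, 64.5 and 59.3 at OX mid, 348 and 365 at OX late, 706 and 646 at RB start and 1232 and 1170.2 at RB late. ACH1 was higher in arp5∆ in 5 of 6 phases and lower at RB late. The range was 1.74 log2 units in arp5∆ (rank 934) and 4.26 in wild type (rank 361).

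**Figure D1:**
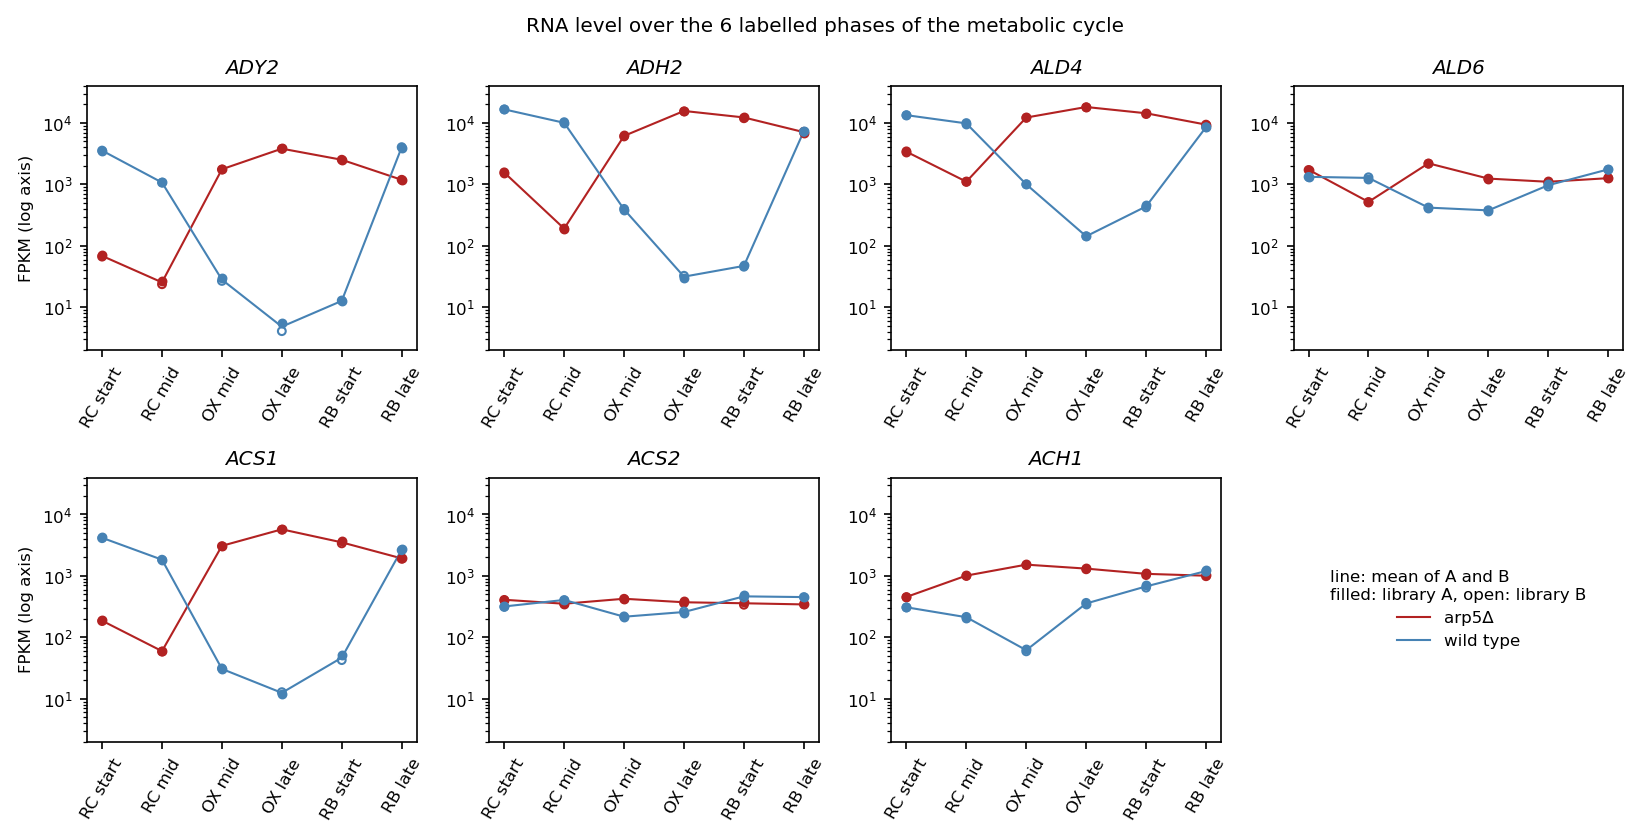
RNA level of each gene (FPKM, log axis) at the 6 labelled phases, with arp5∆ in red and wild type in blue; points are the technical replicates A (filled) and B (open) and lines join their means. ADY2, ADH2, ALD4 and ACS1 are lowest at RC mid in arp5∆ and at OX late in wild type, while ACS2 stays between 340 and 426 FPKM in arp5∆ libraries and between 214 and 485 in wild-type libraries.

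The difference between A and B had a median of 0.02 to 0.06 log2 units for each of the 7 genes and a maximum of 0.37 for ADY2. It was small beside these swings except for ACS2, where it reached 0.15 beside a range of 0.31 in arp5∆. Of 35 pairs of neighbouring phases in the genes' orders, 3 overlapped in arp5∆ and 1 in wild type. The same count was not made over all genes, and A and B are technical replicates, so nothing particular to these genes is read from it. The arp5∆ overlaps were the ACS2 pairs named above and RC mid with RB late for ACH1. The median range of the 7 genes was 4.04 log2 units in arp5∆ and 6.54 in wild type, beside 0.74 and 1.34 over the 6510 genes. The related lists swung less at their median, for example 1.37 log2 units in arp5∆ and 2.97 in wild type for the 6 genes of the glyoxylate cycle and gluconeogenesis, which use acetyl-CoA to build sugar, and 0.57 in arp5∆ and 1.59 in wild type for the 5 genes of the pyruvate dehydrogenase complex, which makes acetyl-CoA from pyruvate. Of the 4 other transporter genes, JEN1, a lactate and pyruvate transporter, ranged by 3.18 log2 units in arp5∆ and 6.62 in wild type. ATO2, a close relative of ADY2, ranged by 2.39 in arp5∆ and 5.09 in wild type. ATO3, another relative of ADY2, also ranged by more than 4 log2 units in both genotypes, at 4.67 in arp5∆ (rank 15) and 5.62 in wild type (rank 97).

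All 7 genes had the smaller range in arp5∆, though for ALD6 the ranges were close, at 2.08 log2 units in arp5∆ and 2.21 in wild type. Under alternative processing the ALD6 range lay between 2.07 and 2.28 in arp5∆ and between 2.18 and 2.29 in wild type, which overlap. The highest phases lay within 1.37 times of each other, with arp5∆ at 0.95 times the wild-type peak for ADY2, 0.94 times for ADH2, 0.91 times for ACS2, 1.25 times for ALD6, 1.27 times for ACH1, 1.36 times for ALD4 and 1.37 times for ACS1. The lowest phase was 5.26 times as high in arp5∆ as in wild type for ADY2, 6.06 times for ADH2, 4.77 times for ACS1, 7.74 times for ALD4 and 7.35 times for ACH1, but 1.37 times for ALD6 and 1.59 times for ACS2. These are the extremes among 6 sampled phases, and a lower or higher level between them would not be seen. The median range over all 6510 genes was also smaller in arp5∆, at 0.74 log2 units beside 1.34 in wild type.

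**Figure D2:**
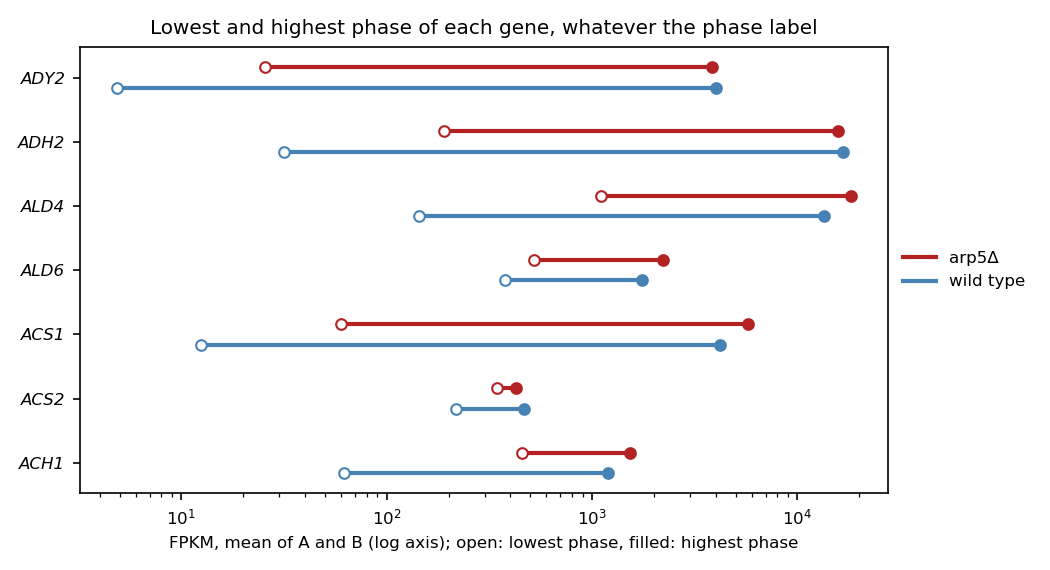
Lowest (open) and highest (filled) phase mean of each gene on a log FPKM axis, with arp5∆ above wild type. The filled ends lie close together, while the open end of ADY2 is at 25.5 FPKM in arp5∆ and 4.84 in wild type, and that of ALD4 at 1109 in arp5∆ and 143 in wild type.

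The enzymes that work in pairs changed their balance with the phase. ACS1 made up 14.5% of the summed FPKM of ACS1 and ACS2 at RC mid and 93.9% at OX late in arp5∆, and 4.61% at OX late and 92.9% at RC start in wild type. ADH2 was set against ADH1, the fermentative alcohol dehydrogenase that makes ethanol. It held 10.8% of their sum at RC mid and 94.7% at RB start in arp5∆, and 1.45% at RB start and 93.7% at RC mid in wild type. ALD4 held 66.3% of the sum of ALD4 and ALD6 at RC start and 93.6% at OX late in arp5∆, and 27.5% at OX late and 91.0% at RC start in wild type. ALD6 therefore exceeded ALD4 at OX late and RB start in wild type and in no sampled phase of arp5∆. ADH1 and ADH2 are close relatives, and the sources used here do not say how reads that fit both were counted, which leaves their split uncertain.

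**Figure D3:**
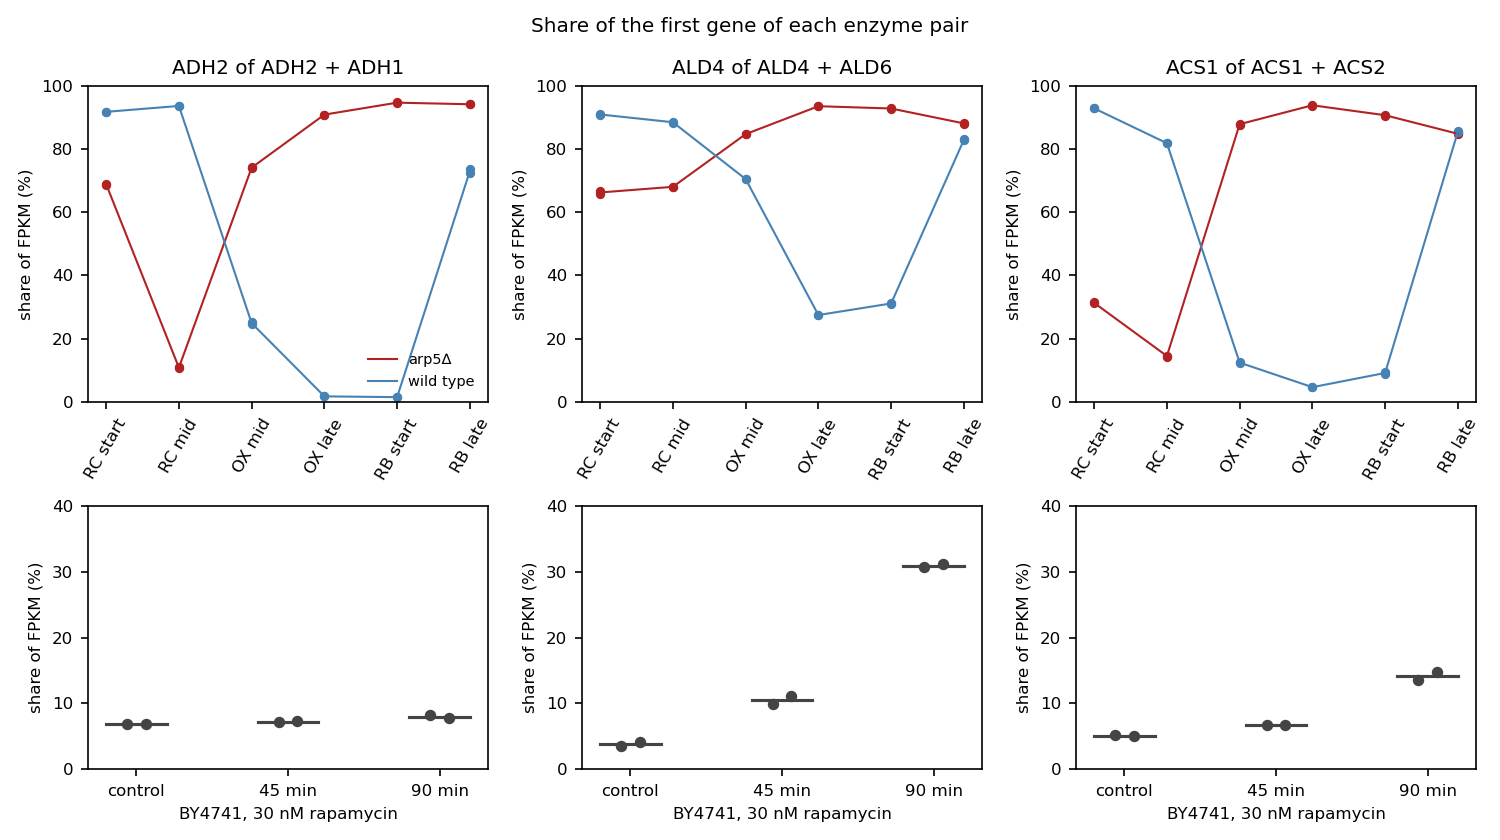
Share (%) of the first gene in the summed FPKM of each enzyme pair, over the 6 phases (upper row, arp5∆ red, wild type blue, both libraries as points) and in BY4741 as control and at 45 and 90 min of rapamycin (lower row, 2 replicates and their mean). ALD4 rises to 31.1% of its pair at 90 min, while ADH2 stays between 6.82% and 8.21%.

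The 4 wide genes moved together over the 24 cycle libraries, which share their cultures and the technical pairs. Pearson's r of log2(FPKM + 1) was 0.99 between ADY2 and ACS1, 0.99 between ADH2 and ALD4, 0.97 between ACS1 and ALD4 and 0.97 between ADH2 and ADY2. ALD6 reached 0.72 to 0.79 with these genes. ACS2 gave 0.37 and ACH1 0.41 with ADY2. These pooled values differed from those within a genotype. With ADY2, ALD6 had an r of 0.48 in the arp5∆ libraries alone and 0.85 in those of wild type. ACS2 had 0.002 in arp5∆ and 0.42 in wild type, and ACH1 0.63 in arp5∆ and 0.26 in wild type. Among other genes with a standard name, the most similar courses to ADY2 were those of FOX2 (r = 0.998), IDP3 (0.995) and FAA2 (0.995). FOX2 and POX1 encode enzymes of peroxisomal fatty acid oxidation, FAA2 a peroxisomal acyl-CoA synthetase and IDP3 a peroxisomal isocitrate dehydrogenase. For ACS1 they were POX1 (0.994), FAA2 (0.993) and FOX2 (0.988). For ADH2 they were FOX2 (0.976), ALT2 (0.974) and ETR1 (0.973), and for ALD4 FOX2 (0.975), CIT3 (0.969), which encodes a mitochondrial citrate and methylcitrate synthase, and POX1 (0.969).

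The 3 other genes had other partners. The course of ACH1 was most like that of ADR1 (r = 0.955), the transcription factor known to activate ADH2, then PGS1 (0.925) and DNM1 (0.916), which encodes a mitochondrial fission GTPase. ALD6 was most like HXT7 (0.869), a hexose transporter with a near-identical neighbour that can share reads, CIR2 (0.868) and PUT4 (0.863), a proline permease. ACS2 had the weakest likeness, with ODC1 (0.858), CHO1 (0.796), which encodes phosphatidylserine synthase, and PUT2 (0.778), which encodes an enzyme of proline breakdown.

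The genotypes were also compared over the cycle as a whole, on the libraries whose values were known when the 7 genes were listed. Their differences are therefore a description, and the wide swings that marked 4 of them also enter the standard errors. The phases of a genotype are not replicate cultures. Standard errors and p-values here thus measure scatter over phase labels and not variation between cultures. In limma, with the phase label as a block and the 6 phase means of each genotype as the samples, 99 of 6510 genes (1.52%) passed the threshold, an adjusted p under 0.05 with a change of at least 1 log2 unit. Of the 7 genes 0 did, and 1 had an unadjusted p under 0.05, beside 15.6% of all genes, from which nothing is read. Of those 99, 66 were higher and 33 lower in arp5∆, and after quantile normalization the split was 35 higher and 30 lower. All 7 differences were positive, as were those of 3323 of the 6510 genes. The median of the 7 was 1.67 log2 units beside 0.01 over all genes, and their standard errors ran from 0.26 for ACS2 to 2.33 for ADY2. The values depended on single phases. With each phase left out in turn, the difference lay between 0.13 and 3.14 log2 units for ADY2, 0.56 and 3.48 for ADH2, 0.59 and 3.32 for ACS1 and 0.73 and 2.76 for ALD4, and was lowest without OX late for all 4.

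ACH1 had a mean of 1067 ± 362 FPKM in arp5∆ and 469 ± 412 in wild type (SD over 6 phases each). The difference was 1.62 ± 0.62 log2 units (SE). ALD4 averaged 9801 ± 6549 FPKM in arp5∆ and 5566 ± 5750 in wild type, a difference of 1.77 ± 1.43 log2 units. ADY2 averaged 1566 ± 1470 FPKM in arp5∆ and 1449 ± 1863 in wild type, a difference of 1.67 ± 2.33 log2 units. ADH2 averaged 7172 ± 6007 in arp5∆ and 5762 ± 6847 in wild type, a difference of 1.95 ± 2.09. ACS1 averaged 2420 ± 2165 in arp5∆ and 1463 ± 1740 in wild type, a difference of 1.95 ± 2.08. The differences are means of log2 values, in which the lowest phases weigh more than in a mean FPKM. ALD6 differed by 0.49 ± 0.52 and ACS2 by 0.15 ± 0.26.

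None of the 7 related lists had a called gene in this comparison, and the same limit on standard errors and p-values holds for them. In the glyoxylate and gluconeogenesis list the median was 1.38 log2 units and 4 of 6 genes had an unadjusted p under 0.05, beside 15.6% of all genes. FBP1, which encodes fructose-1,6-bisphosphatase, averaged 292 ± 68.4 FPKM in arp5∆ and 67.5 ± 47.6 in wild type, a difference of 2.42 ± 0.49 (limma adjusted p = 0.0612). Among the regulators, ADR1 averaged 79.1 ± 15.9 FPKM in arp5∆ and 44.0 ± 23.3 in wild type, a difference of 1.03 ± 0.42 (adjusted p = 0.291). In the other lists the largest differences were 2.60 ± 1.15 for ALD3, an aldehyde dehydrogenase, 1.80 ± 1.02 for ATO2, -0.73 ± 0.51 for PDC6, a pyruvate decarboxylase, -0.68 ± 0.59 for ADH1 and 0.38 ± 0.37 for LAT1 of the pyruvate dehydrogenase complex, with adjusted p between 0.342 and 0.727.

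Rapamycin divided the same genes along another line. In asynchronous BY4741, ACH1, ALD4 and ACS1 rose, ADH2 and ALD6 fell, and ADY2 and ACS2 did not pass the threshold at either time. The rapamycin table was scaled separately from the cycle table, so levels are compared only within it. The treated groups share their control.

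ACH1 had 26.3 and 24.2 FPKM in the control, 62.4 and 69.8 at 45 min and 92.4 and 100.5 at 90 min. The groups did not overlap, and both treated groups stood above the control. The change was 1.35 ± 0.08 log2 units at 45 min (limma adjusted p = 4.58e-06) and 1.89 ± 0.08 at 90 min (adjusted p = 5.65e-07). ALD4 had 32.1 and 39.0 FPKM in the control, 88.9 and 101.4 at 45 min and 124.9 and 111.4 at 90 min. Its groups did not overlap either, and it was raised by 1.40 ± 0.11 log2 units at 45 min (adjusted p = 2.17e-05) and by 1.71 ± 0.11 at 90 min (adjusted p = 5.22e-06). ACS1, the glucose-repressed synthetase, had 11.1 and 10.1 FPKM in the control, 18.0 and 18.6 at 45 min and 24.1 and 27.3 at 90 min. Its change was 0.74 ± 0.10 log2 units at 45 min, under the required size, and 1.20 ± 0.10 at 90 min (adjusted p = 1.63e-05).

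ALD6, the cytosolic aldehyde dehydrogenase, had 901.9 and 899.9 FPKM in the control, 805 and 807 at 45 min and 282 and 246 at 90 min. Nearly all of its decline lay between the treated times. Its change was -0.16 ± 0.07 log2 units at 45 min, not called (limma adjusted p = 0.0687), and -1.77 ± 0.07 at 90 min (adjusted p = 3.34e-07). After quantile normalization the 45 min change was 0.26, with the opposite sign. ADH2 had 622 and 611 FPKM in the control, 445 and 519.7 at 45 min and 259 and 253 at 90 min. Its change was -0.36 ± 0.08 log2 units at 45 min, under the required size, and -1.27 ± 0.08 at 90 min (adjusted p = 3.15e-06). ADH1 moved with it, at 8417 ± 97.5 FPKM in the control, 6184 ± 586 at 45 min and 2947 ± 70.9 at 90 min (SD, n = 2). ADH2 held between 6.82% and 8.21% of the sum of both in all 6 libraries, and whether reads shared with ADH1 set part of the ADH2 value was not tested.

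ACS2 had 204 and 192 FPKM in the control, 254 and 261 at 45 min and 154 and 158 at 90 min. Its differences from the control were 0.37 ± 0.05 log2 units at 45 min (limma adjusted p = 0.000485) and -0.34 ± 0.05 at 90 min (adjusted p = 0.000608), both under the required size. ADY2 was low throughout, at 5.29 and 6.77 FPKM in the control, 10.03 and 7.81 at 45 min and 5.61 and 5.94 at 90 min. The difference for ADY2 was 0.50 ± 0.18 at 45 min (adjusted p = 0.0383), under the required size, and -0.05 ± 0.18 at 90 min (adjusted p = 0.824), or 0.11 without the second control replicate.

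**Figure D4:**
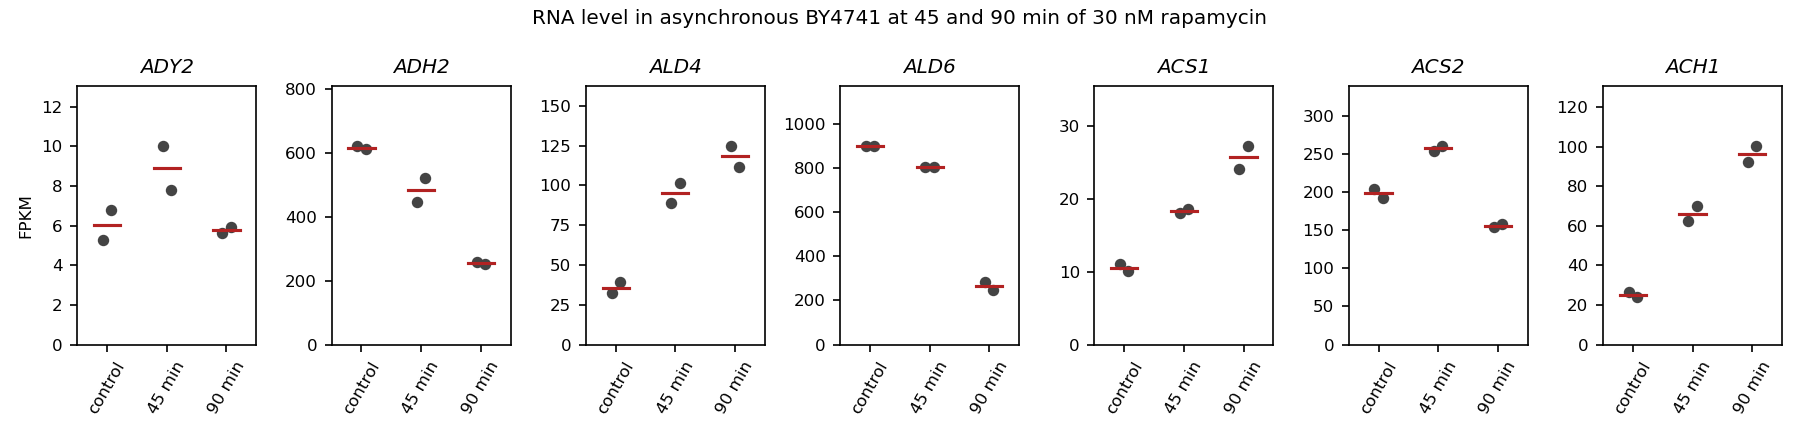
FPKM of each gene in BY4741 as control and at 45 and 90 min of 30 nM rapamycin, with 2 biological replicates as points and their mean as a line; each vertical axis starts at 0 and has its own scale. ACH1, ALD4 and ACS1 are highest at 90 min, ADH2 and ALD6 are lowest there, and ACS2 is highest at 45 min.

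At 45 min, 2 of 7 genes were called higher, beside 11.2% of 6333 genes, and 0 of 7 lower, beside 13.7%; 6 of 7 had an unadjusted limma p under 0.05, beside 73.8% of all genes. At 90 min, 3 of 7 were called higher, beside 18.2%, and 2 of 7 lower, beside 16.8%. Between the treated times 0 of 7 were called higher at 90 min, beside 6.3%, and 1 of 7, ALD6, lower, beside 4.69%. ALD6 changed by -1.61 ± 0.07 log2 units there (limma adjusted p = 2.60e-06). ADH2, at -0.91 ± 0.08, and ACS2, at -0.72 ± 0.05, did not reach the required size, nor did ADY2 (-0.54 ± 0.18), ALD4 (0.31 ± 0.11), ACS1 (0.47 ± 0.10) or ACH1 (0.54 ± 0.08), though all 7 had an unadjusted limma p under 0.05, beside 65.9% of all genes. The median of the 7 was 0.50 log2 units at 45 min and -0.05 at 90 min, beside 0.04 at 45 min and 0.02 at 90 min over all genes. The balance within pairs moved with these changes. ALD4 held 3.44% of the sum with ALD6 in the lowest control library and 31.1% in the highest 90 min library, and ACS1 4.98% and 14.7% of the sum with ACS2 in the same groups.

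Other genes of the pathway were called in both directions under rapamycin. Over all 6333 genes, 18.2% were called higher and 16.8% lower at 90 min. Of 7 other alcohol dehydrogenase genes, 1 rose and 1 fell at 90 min. ADH5 rose by 3.61 ± 0.08 log2 units (404 ± 0.984 FPKM at 90 min, 32.3 ± 2.39 in the control), and ADH1 changed by -1.51 ± 0.07. Of 3 other aldehyde dehydrogenase genes, 2 rose. ALD2 rose by 3.57 ± 0.12 and ALD3 by 2.52 ± 0.10, neighbouring and closely related genes that can share reads. The mitochondrial ALD5 changed by -1.28 ± 0.07 at 45 min and by 0.08 ± 0.07 at 90 min, where it was not called. Of 4 other transporter genes, ATO2 rose by 2.40 ± 0.09 and JEN1 by 1.39 ± 0.09, while ATO3 changed by -2.87 ± 0.07, with 22.3 ± 0.141 FPKM at 90 min and 170 ± 8.76 in the control.

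In the glyoxylate and gluconeogenesis list, 3 of 6 genes rose and 1 fell at 90 min, beside 18.2% of all genes called higher and 16.8% lower. MLS1, which encodes malate synthase, rose by 4.25 ± 0.13 log2 units, PCK1 by 1.90 ± 0.14 and FBP1 by 1.76 ± 0.13. MDH2, a cytosolic malate dehydrogenase, changed by -1.07 ± 0.07. Of 5 pyruvate dehydrogenase complex genes, LPD1 rose by 1.05 ± 0.07, and of 3 pyruvate decarboxylase genes PDC6 rose by 2.36 ± 0.23. Of 8 regulators, SIP4 was called, at 11.4 and 9.45 FPKM at 90 min and 0.2415 and 0.2412 in the control, a change of 3.20 ± 0.26. The control values of SIP4, and of PDC6 at 1.18 and 0.781 FPKM, were low beside the 1 added before taking logs. The sizes of both changes depend on it. CAT8, the activator of gluconeogenic genes, changed by 0.86 ± 0.18 and was not called. The changes called at 90 min against the control in this and the preceding paragraph had limma adjusted p between 2.66e-08 and 5.51e-05. Over all 6333 genes, 11.2% were called higher and 13.7% lower at 45 min. At 45 min the calls among these lists were 1 of 7 alcohol dehydrogenases (higher), 3 of 3 aldehyde dehydrogenases (2 higher, 1 lower), 1 of 3 pyruvate decarboxylases (higher), 2 of 4 transporters (1 in each direction), 0 of 5 pyruvate dehydrogenase genes (5 with an unadjusted limma p under 0.05, beside the 73.8%), 1 of 8 regulators (higher) and 3 of 6 glyoxylate and gluconeogenesis genes (2 higher, 1 lower). The changes called then were 2.32 ± 0.08 for ADH5, 2.35 ± 0.12 for ALD2, 1.79 ± 0.10 for ALD3, 1.10 ± 0.23 for PDC6, 1.62 ± 0.09 for ATO2, -2.98 ± 0.07 for ATO3, 1.28 ± 0.26 for SIP4, 1.94 ± 0.13 for MLS1, 1.13 ± 0.14 for PCK1 and -1.31 ± 0.07 for MDH2, beside that of ALD5 above, with limma adjusted p between 6.47e-08 (ATO3) and 0.00414 (PDC6). Between 45 and 90 min, ADH1 changed by -1.07 ± 0.07, and ADH5, ALD2, ALD5, PDC6, SIP4, MLS1 and FBP1 rose by 1.22 to 2.31 log2 units, with limma adjusted p between 6.23e-06 (ALD5) and 0.00281 (PDC6).

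In the ATAC data, the row named for each gene was compared between 12 arp5∆ and 12 wild-type libraries. The columns show the genotype but neither phase nor replicate, so the values of a genotype mix 6 phases and technical pairs, and p-values over libraries are too small. The values are the authors' normalized signal, the sources used here do not give the window counted around each gene, and the depth is unknown. The threshold here was an adjusted p under 0.05 with a change of at least 0.5 log2 units.

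ADH2 was the gene that passed, with a lowest, median and highest signal of 336, 778 and 949 in arp5∆ libraries and 226, 392 and 667 in wild-type libraries. The groups overlapped. Their means were 669 ± 233 in arp5∆ and 415 ± 153 in wild type (SD, n = 12 libraries each), a difference of 0.69 ± 0.20 log2 units (limma adjusted p = 0.00371). With this, 1 of 7 genes was called higher, beside 10.6% of 5193 genes, and 0 of 7 lower, beside 9.19%. All 7 differences were positive, as were those of 2462 of the 5193 genes. The median of the 7 was 0.24 beside -0.02 over all genes. The groups overlapped for each of the 7, and overlap was not counted over all genes.

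ACH1, ALD6 and ACS2 had small differences with small errors. ACH1 had a mean of 1843 ± 124 in arp5∆ and 1564 ± 180.1 in wild type (0.24 ± 0.05, limma adjusted p = 0.000185), ALD6 1396 ± 97.9 in arp5∆ and 1219 ± 93.6 in wild type (0.20 ± 0.04, adjusted p = 0.000187), and ACS2 372 ± 20.3 in arp5∆ and 329.7 ± 32.3 in wild type (0.18 ± 0.05, adjusted p = 0.00256). All 3 were under the required size. ALD4 differed by 0.37 ± 0.18 (adjusted p = 0.0636), ADY2 by 0.25 ± 0.16 (adjusted p = 0.169) and ACS1 by 0.14 ± 0.08 (adjusted p = 0.117).

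The spread of the signal within a genotype separated the same genes as the RNA did, in part. The highest library stood over the lowest by 2.82-fold for ADH2, 2.53-fold for ADY2 and 2.23-fold for ALD4 in arp5∆, and by 2.96-fold, 2.40-fold and 2.57-fold for these genes in wild type, beside a median gene at 1.41-fold in arp5∆ and 1.46-fold in wild type. In arp5∆ these folds ranked 17 for ADH2, 39 for ADY2 and 90 for ALD4 of 5193. In wild type they ranked 73, 200 and 150 in the same order of genes. A wide spread was not particular to these genes. ADH1, the partner of ADH2, spread by 4.59-fold in arp5∆ (rank 2) and 5.03-fold in wild type (rank 5). Its RNA ranged by 2.30 log2 units in arp5∆ (rank 385) and 2.24 in wild type (rank 1719). ALD3 spread by 2.235-fold in arp5∆ (rank 87) and 2.16-fold in wild type (rank 327). ACS1 spread by 1.67-fold in arp5∆ and 1.48-fold in wild type, and ACS2, ALD6 and ACH1 by 1.22-fold to 1.26-fold in arp5∆ and by 1.24-fold to 1.41-fold in wild type. Over the 12 libraries of a genotype, Pearson's r of log2 signal was 0.89 in arp5∆ and 0.99 in wild type between ADH2 and ADY2, and 0.97 in arp5∆ and 0.98 in wild type between ADH2 and ALD4. ACS1, with its smaller spread, had an r of 0.94 in arp5∆ and 0.95 in wild type with ADY2. With ADH2, ACS1 had 0.81 in arp5∆ and 0.97 in wild type. ALD6 had -0.20 in arp5∆ and 0.48 in wild type with ADH2, ACS2 0.38 and 0.28, and ACH1 0.06 and 0.25. These points share libraries, phases and technical pairs.

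**Figure D5:**
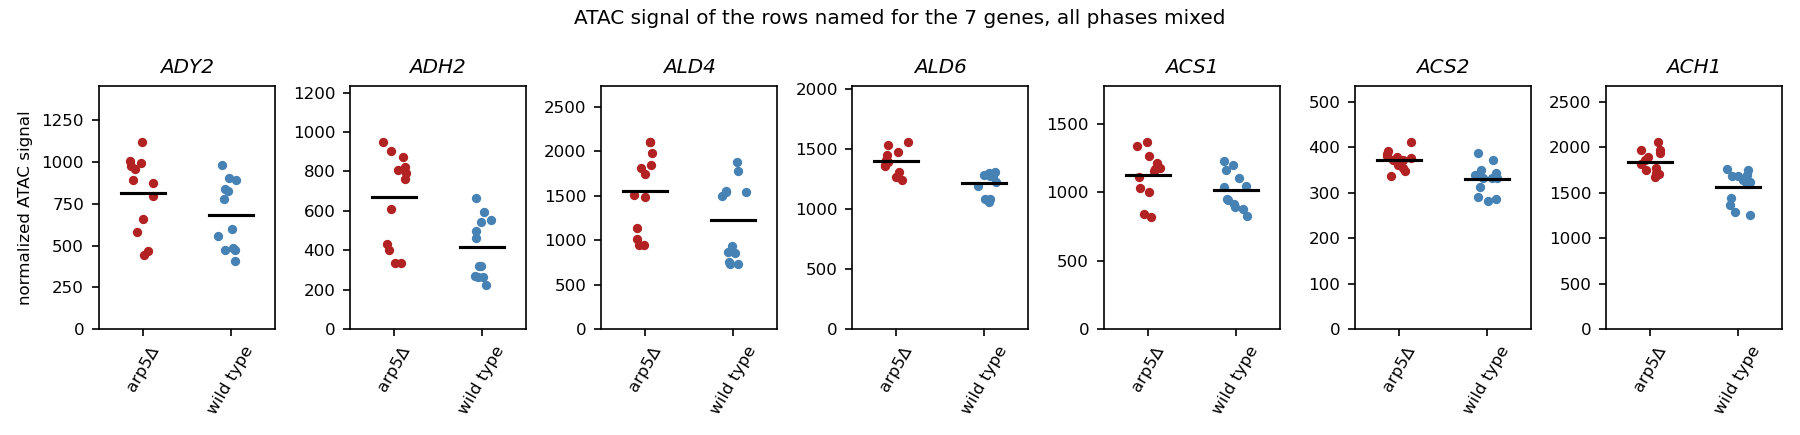
Normalized ATAC signal of the row named for each gene in 12 arp5∆ libraries (left, red) and 12 wild-type libraries (right, blue), with the mean as a line; phases are mixed, sideways position has no meaning and each vertical axis starts at 0 with its own scale. ADH2 spans 336 to 949 in arp5∆ and 226 to 667 in wild type.

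Among the related lists, called ATAC differences were 2 higher and 1 lower of 6 other alcohol dehydrogenase genes, 1 higher of 3 aldehyde dehydrogenases, 1 higher of 4 transporters, 1 higher of 5 pyruvate dehydrogenase genes and 1 lower of 3 pyruvate decarboxylases. Over all 5193 genes, 10.6% were called higher and 9.19% lower. None was called among 4 regulators (3 with an unadjusted limma p under 0.05) or 5 glyoxylate and gluconeogenesis genes (3 with one), beside 69.9% of all genes with an unadjusted p under 0.05. ADH4 was higher in arp5∆ by 1.11 ± 0.05 log2 units, ALD3 by 0.93 ± 0.13, PDB1 by 0.62 ± 0.06, ADH5 by 0.52 ± 0.06 and JEN1 by 0.50 ± 0.07. ADH1, the partner of ADH2, differed by -0.73 ± 0.28, with 329 ± 178 in arp5∆ and 537 ± 257 in wild type, and PDC6 by -0.51 ± 0.07. These called differences had limma adjusted p between 6.25e-18 and 0.0244, with the same limit on p-values over libraries.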

How the data were processed

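The authors deposited FPKM values for 24 cycle RNA libraries and 6 rapamycin RNA libraries, and a normalized ATAC signal per gene for 24 libraries. Bowtie2, DESeq2, Picard and the build sacCer3 are listed in the submitters' processing notes with no version. Read counting, strand and the making of the ATAC signal are not given in the sources used here. RNA was extracted with a MasterPure kit, per the labels' protocols. Cycle columns were matched by title, and rapamycin columns by the replicate numbers in the treatment text. ATAC columns show the genotype alone and were not matched to phases.

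Read depth was recovered from low FPKM values, of which 95.7% to 98.6% per library were whole multiples of 1 read (tolerance 0.1 read). ATAC depth could not be. Values were analysed as log2(value + 1), with limma 3.58.1 in R 4.3.3 (variance trend, Benjamini-Hochberg adjustment over all genes of a table with a mean of at least 1), after the code was tested on simulated data. Changes of low genes are understated on this scale. The simulated cycle values had no swings over the phases, so they cannot show how the genotype comparison behaves with such swings. The threshold was an adjusted p under 0.05 with at least 1 (RNA) or 0.5 (ATAC) log2 units of change. The genotypes were compared on the 12 phase means, blocked by phase, and the 3 rapamycin groups were fitted together. Levels, ranges and shares were tabulated with Python 3.11.15 and pandas 2.3.3. RefSeq (R64) gave positions and the symbols that the rapamycin table lacked.

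The 7 genes and the related lists were chosen with earlier results of these data known. Named were all 7 genes and the called genes of the related lists (at most 4 per list and direction) or otherwise the largest uncalled one. For each of the 7, the 3 genes with the most similar cycle course were also named. Only genes with a standard name were ranked for this, so a gene without one may be closer. ADH7 had no row in the cycle and ATAC tables, and FBP1 and 4 of 8 regulators had none in the ATAC table, so they were not analysed there. Alternatives covered the pseudocount, the filter, quantile normalization, the variance trend, left-out phases or replicates, libraries as samples and the replicate block.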

Additional observations from a re-analysis of the deposited data

Results flagged for a closer look

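ALD6 responded differently at the treated times. Its change from the control at 90 min minus that at 45 min was -1.61 log2 units in the limma test of 90 min against 45 min (adjusted p = 2.60e-06), and both 90 min replicates lay below both 45 min replicates. The direction of the difference between the genotypes also turned with the phase for all 7 genes. Both arp5∆ libraries lay above both wild-type libraries in 3 phases for ADY2, 3 for ADH2, 3 for ACS1, 3 for ACS2, 4 for ALD4, 4 for ALD6 and 5 for ACH1, and below or overlapping in the others. Whether a phase label marks the same point of the cycle in both genotypes was not tested, and genes outside the pathway, such as LEU2 and HIS3, also peaked at different labels, RC start in arp5∆ and OX mid in wild type. Over all 6510 genes, 4.76% had their highest phase mean at the same label in both genotypes. How many of all genes turned in this way was not counted, so the turn is not read as particular to the 7. The turn itself was not tested, since the genes were listed with their cycle values known and A and B are technical replicates.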

How the results depend on the processing

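All changes called for the 7 genes in the rapamycin and ATAC comparisons stayed called in the same direction under every alternative run. The uncalled ones also kept their side of the threshold, except that ADH2 at 90 min against 45 min was called, at -1.02, without 45 min replicate 1; leaving out each replicate in turn thus gave 1 to 2 of 7 calls there. Signs turned for ALD6 at 45 min under quantile normalization (0.26), for ADY2 at 90 min (-0.20 to 0.11 log2 units when each replicate was left out, and above 0 without control replicate 2) and for ACS2 between the genotypes without OX mid (-0.017). The genotype comparison was the least stable. Of 99 genes called, the count was 65 under quantile normalization, 6 without OX late, 59 without OX mid, 12 without RB late, 1 without RB start and 26 without RC mid. It was 332 with 24 libraries as samples, 323 with the replicate block and 196 with no phase block, an alternative chosen after seeing the data, and the cause was not tested. Of the 7 genes, 1 (ACH1) was called with 24 libraries as samples and 1 with the replicate block, though A and B come from a single culture. Of 56 alternative values of the ranges over the phases, 22 differed from the reported range by more than the spread between libraries A and B. ATAC depth is unknown.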
